A study of Arabidopsis thaliana with 12 samples.

Results

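Shoots of wild-type Arabidopsis thaliana seedlings kept on a medium without iron (Fe) were compared with wild-type shoots kept on a medium with Fe. The comparison takes 4 of the 12 Affymetrix arrays of the study, chosen by organ, genotype and medium as the sample titles give them, 2 a side, and all 22746 probe sets other than the array's own controls. The protocols describe 10 days of growth on a control medium and then 5 days on agar stripped of contaminating metals with EDTA. That agar had no Fe added, or 10 µM Fe as the chelate Fe-HBED. Tissue was collected at an age of 15 days, 3 h after lights on. The groups used here were wild-type (Col-0) shoots without Fe, irt1 shoots with Fe and wild-type shoots with Fe, with wild-type roots without and with Fe drawn on for the difference between organs. The irt1 plants, named irt1-2 and pam42 by the submitters, are defective in IRT1, the root Fe transporter, and were grown on the medium with Fe. Every seedling had the same 10 days on control medium before the transfer, during which the irt1 plants already carried their defect. How many seedlings went into a sample is not given in the sources used here.

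Iron is a cofactor of haem proteins, iron-sulfur (Fe-S) proteins and oxygenases, and in leaves most of it serves photosynthetic and respiratory electron transport. When Fe runs short, a chain of basic helix-loop-helix (bHLH) transcription factors switches on genes for Fe uptake and redistribution. The IVc bHLH proteins activate the Ib bHLH genes, PYE and the IMA peptide genes, while E3 ligases of the BTS family mark IVc proteins for breakdown. IMA peptides bind these ligases and so keep the IVc proteins in place.

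All values are log2 signals as deposited, with 1 decimal. Replicate arrays correlated across probe sets with r = 0.995 in shoots without Fe, 0.9913 in irt1 shoots and 0.991 in shoots with Fe. The difference between the 2 replicates had an SD of 0.22 in shoots without Fe, 0.29 in irt1 shoots and 0.29 in shoots with Fe. The 3′ minus 5′ difference of the GAPDH control, a sign of RNA integrity, was 0.8 and 1.0 in shoots without Fe, 1.6 and 0.9 in irt1 shoots, and 1.0 and 1.0 in shoots with Fe, so irt1 replicate 1 stood apart. The 6 measured green leaf markers averaged 11.1 to 11.2 in shoots without Fe and 11.9 in shoots with Fe, against 5.72 to 6.88 in wild-type roots. The 7 measured root markers averaged 4.2 in shoots without Fe and 4.0 to 4.03 in shoots with Fe, against 6.90 to 9.23 in wild-type roots. The organ label therefore fits these markers. In the shoot comparison 1 root marker was called, the E3 ligase gene AT1G74770, which was higher. Of the 7 root markers 2 had a positive and 5 a negative log2 fold change in shoots, with a median of -0.20. Their median in wild-type roots without against with Fe was 2.35, so the list itself differed between the media. The 2 green leaf markers called were lower, LHCB4.3 and PSAN. Single markers of guard cells (FMA, 0.15), phloem (SWEET11, 0.45) and the shoot meristem (CLV3, -0.25) were not called. In whole shoots, fewer cells of a type and less RNA per cell cannot be told apart.

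Of the 22746 probe sets, 608 rose in shoots without Fe (2.67%) and 498 fell (2.19%), at a Benjamini-Hochberg adjusted p under 0.05 in limma. Together that is 1106, or 4.86%, of which 330 changed by at least 2-fold (1.45%), 151 of them higher (0.664%) and 179 lower (0.787%). Most changes were modest: the median log2 fold change was 0.70 among those that rose and -0.80 among those that fell. The large ones were few, with 18 probe sets that rose and 15 that fell by at least 8-fold. At an unadjusted p under 0.05 there were 4447 probe sets (19.6%), and the 2 groups did not overlap in 8176 (35.9%), so a gap between 2 arrays and 2 others is common on these arrays. Of the 13436 named probe sets, 300 rose (2.23%) and 254 fell (1.89%). The counts of called list members below are to be read beside these shares. The total is sensitive to single arrays: it was 350 and 629 without replicate 1 or replicate 2 of the shoots without Fe, and 525 without replicate 2 of the shoots with Fe. In a model of the 6 shoot arrays it was 121, and in a model of the 4 compared arrays 3 (3603 at an unadjusted p under 0.05), so the calls rest on a spread estimated over all 12 arrays. With each array centred on its median, which moves the median of all probe sets by -0.10, 36.15% of the calls were higher, against 54.97% as deposited.

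**Figure D1:**
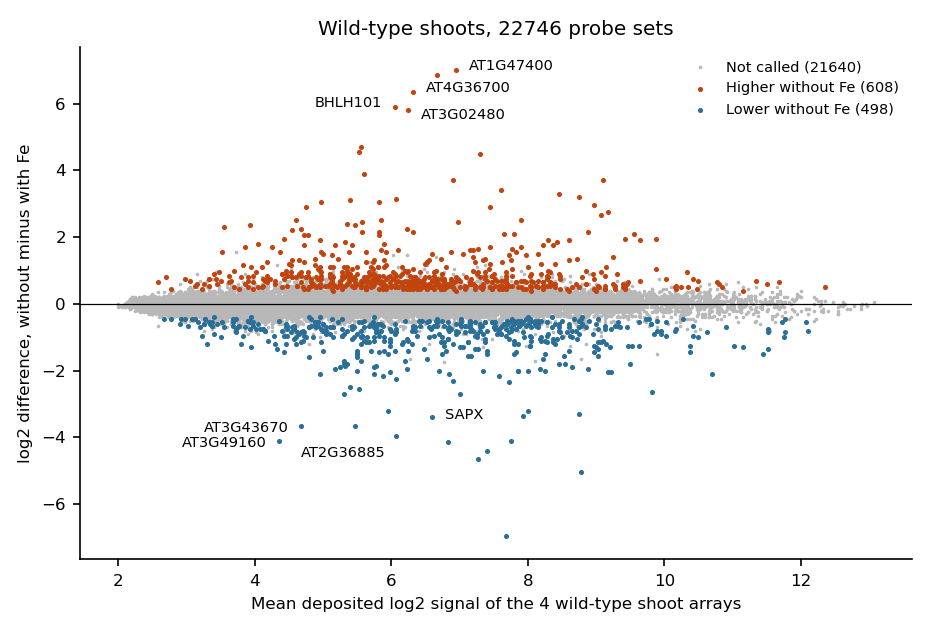
Log2 difference between wild-type shoots without and with Fe (vertical axis) against the mean deposited log2 signal of the 4 arrays (horizontal axis), 1 point a probe set. The 608 probe sets called higher and the 498 called lower lie at all signal levels, and a small number reach differences of up to 7.0 and down to -6.95.

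The Fe-deficiency regulators included the largest rise among the named genes. Of 9 measured members, 5 rose and 0 fell, with a median log2 fold change of 0.55 against 0.00 over all probe sets. AT1G47400 (IMA1), for a peptide that holds back the BTS ligases, had 10.4 and 10.5 in shoots without Fe, against 3.6 and 3.3 in shoots with Fe. The log2 fold change was 7.0 ± 0.21 (SE; limma adjusted p = 6.87e-09). BHLH101, a Ib bHLH factor, had 8.8 and 9.2 in shoots without Fe, against 3.2 and 3.0 in shoots with Fe (5.90 ± 0.20 SE; limma adjusted p = 1.87e-08). In wild-type shoots both genes lay at low signals with Fe and far above them without Fe. Near the lowest signals on the arrays a log2 difference may understate a change, so the linear folds are not given. PYE, a bHLH repressor of Fe storage and distribution genes, had 7.3 and 7.4 in shoots without Fe, against 5.1 and 5.1 in shoots with Fe (2.25 ± 0.12 SE; limma adjusted p = 7.69e-07). AT1G74770 (BTSL1), a ligase of the BTS family, had 5.7 and 5.9 without Fe and 3.3 and 3.8 with Fe (2.25 ± 0.17 SE; limma adjusted p = 1.46e-05). A second probe set of AT1G74770 disagreed, with 3.6 and 3.2 in shoots without Fe and 3.3 and 3.3 in shoots with Fe (0.10; adjusted p = 0.824), so the rise of this gene rests on 1 of its probe sets.

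The IVc bHLH genes showed small differences. bHLH115 had 8.4 and 8.2 in shoots without Fe, against 7.8 and 7.7 in shoots with Fe, a log2 fold change of 0.55 ± 0.11 (SE; limma adjusted p = 0.017). That call was lost without replicate 1 of the shoots without Fe (adjusted p = 0.16), without replicate 2 of the shoots with Fe (0.103), and with arrays centred on their median (0.0684). The other IVc genes were not called: ILR3 had a log2 fold change of 0.00, bHLH104 of 0.05 and bHLH34 of 0.35. AT1G18910 (BTSL2), the closest relative of BTSL1, was not called in shoots either, at 4.5 and 4.5 without Fe and 4.4 and 4.0 with Fe (0.30 ± 0.17 SE; adjusted p = 0.366). Of 7 genes found as bHLH factors by name, BHLH101 and bHLH115 rose and AT1G22490 fell (-0.70; limma adjusted p = 0.0447). The call of AT1G22490 was lost without replicate 1 (adjusted p = 0.295) or replicate 2 (0.0978) of the shoots without Fe and without replicate 2 of the shoots with Fe (0.253).

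Genes for moving, storing and building Fe into clusters showed 0 calls among the few measured here. Over all probe sets 4.86% were called, so 0 calls among so few genes say little. AT3G58060 (MTP8), a vacuolar manganese transporter of roots and seeds, had 3.4 and 3.4 in shoots without Fe and 3.3 and 3.4 in shoots with Fe. The mitochondrial Fe importer genes AT2G30160 (MIT1) and AT1G07030 (MIT2) showed log2 differences of -0.15 and 0.40. The VIT-like genes AT3G43630 and AT3G43660 showed 0.00 and -0.05. The Fe-S assembly genes CPNIFS, for a plastid cysteine desulfurase, ISU1, for a mitochondrial scaffold, and HCF101, for a plastid cluster carrier, had -0.05, 0.00 and -0.15. All 8 genes had adjusted p-values of 0.195 or higher, and many other well-known genes of these lists, ferritin genes among them, were not matched to a probe set by name and are not analysed here.

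Among the other genes with the largest rises, AT4G36700, of the cupin family to which seed storage proteins belong, had 9.3 and 9.7 in shoots without Fe, against 3.2 and 3.1 in shoots with Fe (6.35 ± 0.14 SE; limma adjusted p = 9.9e-10). AT3G02480, of the late embryogenesis abundant (LEA) family of desiccation proteins, had 9.3 and 9.0 without Fe and 3.0 and 3.7 with Fe (5.80 ± 0.28 SE; limma adjusted p = 2.42e-07). AT1G12030 had 8.0 and 7.8 without Fe and 3.1 and 3.3 with Fe (4.70 ± 0.19 SE). For all 3 genes both arrays without Fe lay at least 4 log2 units above both arrays with Fe. AT5G05250 had 9.5 and 9.6 without Fe and 4.8 and 5.3 with Fe (4.50 ± 0.18 SE), and AT1G33130 had 6.2 and 6.2 without Fe and 3.4 and 3.2 with Fe (2.90 ± 0.14 SE). The probe set of AT1G33130 can also bind related transcripts by its design class, as can that of AT2G41730. Other genes of dehydration were not called: of 7 genes found as LEA or dehydrin proteins by name 0 were called (-0.25 to 0.35), and of 4 water-deficit and abscisic acid markers 0 were called (-0.25 to 0.20). Over all probe sets 4.86% were called, so 0 calls in lists this short do not set AT3G02480 apart from them.

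Several of the large rises belonged to genes used as markers of mitochondrial stress. AT2G21640 (UPOX), a mitochondrial protein gene induced by oxidative stress, had 9.2 and 8.3 in shoots without Fe, against 5.1 and 5.0 in shoots with Fe (3.70 ± 0.23 SE, 13.0-fold; limma adjusted p = 2.07e-06). AT5G51440, a mitochondrial small heat shock protein gene, had 7.0 and 6.0 without Fe and 3.6 and 3.3 with Fe (3.05 ± 0.32 SE; limma adjusted p = 0.000231). AT5G09570, for a small twin-cysteine protein of the CHCH type, had 7.7 and 7.0 without Fe and 4.5 and 4.1 with Fe (3.05 ± 0.22 SE; limma adjusted p = 1.1e-05). In each case the groups were far apart, and replicate 1 of the shoots without Fe lay above replicate 2 by 0.7 to 1.0. NDB4, for an alternative NADH dehydrogenase on the outer face of the inner membrane, had 5.8 and 5.0 without Fe and 3.4 and 3.5 with Fe (1.95 ± 0.21 SE; limma adjusted p = 0.000252). Of 6 measured genes in a group of mitochondrial stress markers put together after the values were seen, these 4 rose and 0 fell. The other two did not: NDB2 had a log2 fold change of 0.45 (adjusted p = 0.171) and AT5G64400, also a CHCH-type gene, of -0.05.

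The efflux carrier gene AT2G04050, of the MATE family, showed the same order of replicates, with 8.2 and 6.9 in shoots without Fe, against 3.6 and 3.7 in shoots with Fe (3.90 ± 0.29 SE; limma adjusted p = 1.21e-05). AT2G41730 had 9.8 and 8.8 without Fe and 6.0 and 5.8 with Fe (3.40 ± 0.29 SE; limma adjusted p = 3.44e-05). Here too replicate 1 of the shoots without Fe was the higher one, by 1.3 and 1.0. That order was common among the genes that rose, with replicate 1 above replicate 2 in 354 of 608 called higher and below it in 152, against 10325 above and 7594 below of all 22746 probe sets. The part of this replicate difference in the rises was not tested. With 1 of the 4 compared arrays left out, the log2 fold change ranged from 3.25 to 4.55 for AT2G04050 and from 2.9 to 3.9 for AT2G41730. It ranged from 3.25 to 4.15 for AT2G21640 and from 2.55 to 3.55 for AT5G51440. A group left with 1 array has no spread of its own, so such fits cannot test the replicate difference. Of 12 measured glutathione S-transferases, detoxifying enzymes that often respond to oxidative stress, 0 rose and GSTU18 fell (-1.0; limma adjusted p = 0.0428), a call lost whichever of the 4 arrays was left out (adjusted p 0.099 to 0.2) and without irt1 replicate 1 (0.0531).

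Among the named genes the largest fall was that of AT3G49160, of the pyruvate kinase family, with 2.3 and 2.3 in shoots without Fe, against 6.6 and 6.2 in shoots with Fe (-4.10 ± 0.14 SE; limma adjusted p = 1.87e-08). Its level without Fe lay close to the lowest signals on the arrays, where log2 differences understate a change. AT2G36885 had 4.0 and 4.2 without Fe and 8.2 and 7.9 with Fe (-3.95 ± 0.18 SE; limma adjusted p = 1.31e-07). AT3G43670, a copper amine oxidase gene, had 2.8 and 2.9 without Fe and 6.3 and 6.7 with Fe (-3.65 ± 0.15 SE; limma adjusted p = 7.19e-08). SAPX, for the haem-containing ascorbate peroxidase of the plastid stroma, which removes hydrogen peroxide, had 5.1 and 4.7 without Fe and 8.5 and 8.1 with Fe (-3.40 ± 0.21 SE; limma adjusted p = 2.01e-06). For these 4 genes both arrays without Fe lay at least 3 log2 units below both arrays with Fe. Its thylakoid counterpart TAPX had 8.8 and 8.8 without Fe and 9.1 and 9.5 with Fe, and was not called (-0.50 ± 0.16 SE; adjusted p = 0.101).

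Smaller falls followed. AT5G59400 had a log2 fold change of -2.70 ± 0.16, AT4G25030 of -2.35 ± 0.14, AT3G61870 of -2.05 ± 0.22 and AT3G20510 of -2.0 ± 0.11 (SE). AT1G49010, a MYB-related factor gene, had 5.2 and 4.7 in shoots without Fe, against 7.2 and 7.2 in shoots with Fe (-2.25 ± 0.19 SE; limma adjusted p = 3.18e-05). AT2G37130, for a secreted haem peroxidase of class III, had 5.6 and 6.0 without Fe and 7.6 and 8.2 with Fe (-2.10 ± 0.32 SE; limma adjusted p = 0.00318), and lost its call without replicate 1 of the shoots without Fe (adjusted p = 0.0602). AT1G13650 had 5.1 and 4.3 without Fe and 7.3 and 6.3 with Fe (-2.10 ± 0.32 SE; limma adjusted p = 0.00324). In the model of the 6 shoot arrays AT2G37130 and AT1G13650 were not called (adjusted p = 0.133 and 0.164). The last 3 genes were separated by 1.2 to 2.0 log2 units between their nearest arrays.

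**Figure D2:**
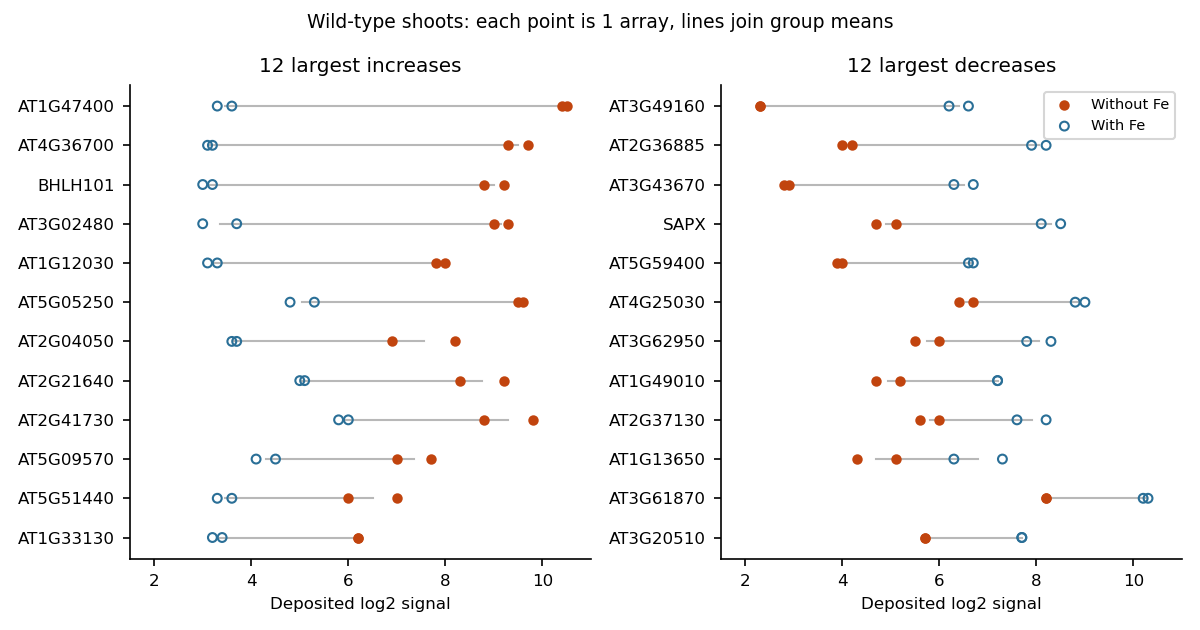
Deposited log2 signal (horizontal axis) of the 12 named genes with the largest rises (left) and the 12 with the largest falls (right) in wild-type shoots, with filled points for the 2 arrays without Fe and open points for the 2 arrays with Fe. Genes were chosen among those whose groups did not overlap, so the groups are apart by choice, and the points without Fe are spread most for AT2G04050, AT2G41730 and AT5G51440.

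Several genes of photosynthesis fell. LHCB4.3, an isoform of the minor photosystem II antenna CP29, had 7.2 and 7.2 in shoots without Fe, against 9.3 and 9.0 in shoots with Fe (-1.95 ± 0.17 SE; limma adjusted p = 4.62e-05). The other CP29 isoforms were not called, with LHCB4.1 at -0.45 and LHCB4.2 at -0.20. PSAN, for a lumenal subunit of photosystem I, had 10.6 and 10.8 without Fe and 12.1 and 12.3 with Fe (-1.50 ± 0.15 SE; limma adjusted p = 0.000164). PSBW, for a small photosystem II subunit, fell by 0.55 on the log2 scale, and its call was lost without replicate 1 of the shoots without Fe (adjusted p = 0.12) and without replicate 2 of the shoots with Fe (0.0639). AT2G26500, for a cytochrome b6f subunit and named after its values were seen, had 10.8 and 10.9 without Fe and 12.2 and 12.2 with Fe (-1.35 ± 0.11 SE; limma adjusted p = 2.17e-05). Of 5 photosystem and antenna genes found by name, 0 rose and 2 fell, with a median of -0.45. The 6 green leaf markers, of which LHCB4.3 and PSAN are members, averaged 11.1 to 11.2 without Fe and 11.9 with Fe, and their part in the falls of plastid genes was not tested.

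Of 69 genes of the plastid genome, 0 rose and 1 fell, ndhK for a subunit of the plastid NADH dehydrogenase-like complex, with 7.0 and 6.6 without Fe and 8.0 and 7.9 with Fe (-1.15 ± 0.20 SE; limma adjusted p = 0.0071). Its call was lost without replicate 2 of the shoots without Fe (adjusted p = 0.0698). The median over the 69 was -0.15, and the groups did not overlap in 24 lower and 4 higher genes, against 16.2% lower and 19.7% higher over all probe sets. RCA, for Rubisco activase, a leaf marker, had a log2 fold change of -0.05, and 3 carbon fixation genes gave 0 calls (median -0.15).

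Of 9 measured genes of chlorophyll and haem synthesis 0 rose and 2 fell, with a median of -0.35. HEME1, for a uroporphyrinogen decarboxylase, had 8.8 and 9.1 in shoots without Fe, against 9.5 and 9.7 in shoots with Fe (-0.65 ± 0.13 SE; limma adjusted p = 0.0148). HEMA2, for a glutamyl-tRNA reductase at the entry of the pathway, had 6.2 and 6.3 without Fe and 6.8 and 6.8 with Fe (-0.55 ± 0.11 SE; limma adjusted p = 0.0186). Both calls depend on single arrays: HEME1 lost its call without replicate 1 of the shoots without Fe (adjusted p = 0.154) and replicate 2 of the shoots with Fe (0.108), and HEMA2 whichever of the 4 arrays was left out (0.0514 to 0.154). PORB, for a protochlorophyllide reductase, was not called at -0.75 ± 0.21 (SE; adjusted p = 0.0719), nor HEME2 at -0.40 (adjusted p = 0.1). GSA1 and HEMB1, early steps of the pathway, both had 0.05.

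Some genes of Fe-containing respiratory proteins were lower as well. This group of 15 mitochondrial Fe-S and haem protein genes was put together after the values were seen, 7 were measured, 4 fell and 0 rose. SDH2-1, for an Fe-S subunit of succinate dehydrogenase, had 7.5 and 7.5 in shoots without Fe, against 8.4 and 8.3 in shoots with Fe (-0.85 ± 0.16 SE; limma adjusted p = 0.0122). Its twin SDH2-2 had 7.3 and 7.0 without Fe and 7.9 and 7.8 with Fe (-0.70 ± 0.13 SE; limma adjusted p = 0.0122). AT3G27240, for a haem-bearing cytochrome c1, had 8.2 and 8.0 without Fe and 8.9 and 8.7 with Fe (-0.70 ± 0.13 SE; limma adjusted p = 0.00897), while its paralogue AT5G40810 was not called (-0.10). The cytochrome c genes CYTC-1 and CYTC-2 were not called, at 0.25 and 0.10. The groups of each called gene did not overlap, yet the gaps were small and single arrays carried the calls. A second probe set of SDH2-1, near the lowest signals, had a log2 fold change of 0.00. SDH2-1 was lost whichever of the 4 arrays was left out (adjusted p 0.0514 to 0.101), SDH2-2 without replicate 2 of the shoots without Fe or replicate 1 of the shoots with Fe (0.0921 and 0.0507), and AT3G27240 without replicate 2 of the shoots without Fe (0.0741).

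The fourth, ETFQO, for an Fe-S enzyme that passes electrons to ubiquinone, had 6.7 and 6.9 without Fe and 7.2 and 7.9 with Fe (-0.75 ± 0.19 SE; limma adjusted p = 0.0497). It also serves the breakdown of branched-chain amino acids, where 4 of 10 measured genes fell and 0 rose in a group put together after the values were seen. MCCA, for a methylcrotonyl-CoA carboxylase subunit, had 7.6 and 8.2 without Fe and 8.9 and 9.7 with Fe (-1.40 ± 0.31 SE; limma adjusted p = 0.0269). ALDH6B2, for a methylmalonate semialdehyde dehydrogenase, fell by 0.90 and the aminotransferase gene AT1G50110 by 1.1 on the log2 scale. The partner subunit gene MCCB (-0.10) and IVD (-0.30) were not called. All 4 calls were lost without replicate 1 of the shoots without Fe (adjusted p 0.146 to 0.313). They were also lost without replicate 2 of the shoots without Fe for ETFQO, ALDH6B2 and AT1G50110 (0.111, 0.0546 and 0.194), without replicate 2 of the shoots with Fe for ETFQO, MCCA and ALDH6B2 (0.254, 0.189 and 0.131), without replicate 1 of the shoots with Fe for AT1G50110 (0.154) and without irt1 replicate 1 for ETFQO (0.0625).

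The list of electron carriers and Fe-containing assimilation enzymes had 1 measured member, SIR, and it fell. SIR, for sulfite reductase, which holds sirohaem and an Fe-S cluster, had 8.6 and 8.4 in shoots without Fe, against 9.8 and 9.5 in shoots with Fe (-1.15 ± 0.13 SE; limma adjusted p = 0.000313, or 0.0574 with the 6 shoot arrays alone). The rubredoxin-like gene AT5G51010 had 7.6 and 7.8 without Fe and 9.5 and 9.7 with Fe (-1.90 ± 0.13 SE; limma adjusted p = 8.25e-06). A second rubredoxin-like gene, AT1G54500, had 9.0 and 9.2 without Fe and 9.9 and 9.7 with Fe (-0.70 ± 0.12 SE; limma adjusted p = 0.00501), a call lost without replicate 1 of the shoots without Fe (adjusted p = 0.0698). Both rubredoxin-like genes were named after their values were seen.

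Genes of copper proteins went both ways. CCS, the copper chaperone that loads copper into superoxide dismutase, had 9.5 and 9.6 in shoots without Fe, against 8.4 and 9.0 in shoots with Fe (0.85 ± 0.16 SE; limma adjusted p = 0.0134). The call was lost without replicate 1 or replicate 2 of the shoots without Fe (adjusted p 0.0838 and 0.0862). Of the 7 measured copper amine oxidase genes AT3G43670 and AT1G31710 (-0.50) fell, while AT2G42490 rose, with 8.7 and 8.7 without Fe and 7.9 and 7.8 with Fe (0.85 ± 0.12 SE; limma adjusted p = 0.0024). A second probe set of AT1G31710 had the same log2 fold change without a call (adjusted p = 0.358), and the called one lost its call whichever array was left out (adjusted p 0.0529 to 0.179). This family was set apart after the values were seen, as was the metallothionein gene MT1C, which had 10.9 and 10.7 without Fe and 10.1 and 9.6 with Fe (0.95 ± 0.16 SE; limma adjusted p = 0.00554).

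The CC-type glutaredoxins, small plant thiol proteins that bind transcription factors, split within the family. This family was chosen after the values were seen, and of 17 measured members 4 rose and 1 fell. AT1G03020 had 5.1 and 5.1 in shoots without Fe, against 3.5 and 3.3 in shoots with Fe (1.70 ± 0.12 SE; limma adjusted p = 9.56e-06). AT3G62950 had 5.5 and 6.0 without Fe and 7.8 and 8.3 with Fe (-2.30 ± 0.19 SE; limma adjusted p = 3.38e-05). Its neighbour on the chromosome, AT3G62960, went the other way, with 8.2 and 7.9 without Fe and 7.1 and 6.6 with Fe (1.2 ± 0.20 SE; limma adjusted p = 0.00517). AT2G47880 and AT4G15680 rose by 0.85 and 0.80. These smaller calls were lost without replicate 1 of the shoots without Fe (adjusted p = 0.0827 for AT3G62960, 0.142 for AT2G47880 and 0.142 for AT4G15680) and without replicate 2 of the shoots with Fe (0.0538, 0.106 and 0.0986). Members with near-identical sequence may share signal on the array, which was not tested.

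Sugar and starch genes held a few rises, all named after their values were seen except where the fixed starch list is given. SAG29, a SWEET sugar exporter also known as a senescence gene, had 7.1 and 6.2 in shoots without Fe, against 4.3 and 4.7 in shoots with Fe (2.15 ± 0.29 SE; limma adjusted p = 0.00139). Of 16 measured SWEET genes 2 rose, SAG29 and SWEET4 (0.80), and SWEET16 of the vacuole fell (-0.60). APL4, for a large subunit of ADP-glucose pyrophosphorylase, the entry enzyme of starch synthesis, had 6.0 and 5.5 without Fe and 4.4 and 4.0 with Fe (1.55 ± 0.17 SE; limma adjusted p = 0.000252), and APL3 rose by 0.80. The list of starch and sucrose genes found by name held 5 others, of which 0 were called. SWEET4 and SWEET16 lost their calls whichever of the 4 arrays was left out (adjusted p 0.056 to 0.147 and 0.0551 to 0.228), SWEET16 also without irt1 replicate 1 (0.0522), and APL3 without replicate 1 of the shoots without Fe or replicate 2 of the shoots with Fe (0.18 and 0.131).

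Further single members stood out from their families, all chosen after their values were seen. NET3A, of a family of actin-binding membrane proteins, had 6.8 and 6.9 in shoots without Fe, against 5.0 and 4.6 in shoots with Fe (2.05 ± 0.16 SE; limma adjusted p = 1.46e-05), and 3 of 10 measured NET genes rose. In the FAX family, named for fatty acid export, AT3G20510 and AT3G57280 (FAX1) fell, 2 of 7 measured. AT3G57280 had 7.3 and 7.1 without Fe and 8.4 and 8.4 with Fe (-1.20 ± 0.15 SE; limma adjusted p = 0.000883). ALN, for allantoinase of purine breakdown, had 6.5 and 6.2 without Fe and 7.8 and 8.0 with Fe (-1.55 ± 0.19 SE; limma adjusted p = 0.000783). CHL, the lipocalin of the plastid, had 6.8 and 6.9 without Fe and 8.7 and 9.0 with Fe (-2.0 ± 0.13 SE; limma adjusted p = 4.98e-06). The other NET calls, NET1B (0.50) and NET4B (0.60), depend on single arrays: NET1B was lost whichever array was left out (adjusted p 0.0614 to 0.178), and NET4B without any but replicate 1 of the shoots with Fe (0.111 to 0.169).

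GI (GIGANTEA), a clock gene with a strong daily rhythm, had 6.1 and 6.1 in shoots without Fe, against 7.3 and 7.7 in shoots with Fe (-1.40 ± 0.15 SE; limma adjusted p = 0.000307). It was the single measured member of the clock list, all samples were taken at 1 time of day, and its call was lost with the 6 shoot arrays alone (adjusted p = 0.0713). Among 30 expansin and xyloglucan enzyme genes, which loosen cell walls, XTH16 rose (0.65) and EXPB1 fell (-0.90). XTH16 was lost without replicate 1 of the shoots without Fe (adjusted p = 0.153) or replicate 2 of the shoots with Fe (0.109), and EXPB1 whichever of the 4 arrays was left out (0.058 to 0.141). Lists with 0 calls were the 24 cytochrome P450s (-0.60 to 0.60), the 21 defensin and pathogenesis-related genes (-1.20 to 0.45), 7 WRKY factors, 5 histones, and 10 glutaredoxins and thioredoxins found by name. That search by name did not reach the called CC-type glutaredoxins given above, of which 4 rose and 1 fell. With 4.86% called over all probe sets, 0 calls in lists of this size say little about the families. DFR of anthocyanin synthesis (0.85; adjusted p = 0.135) and the senescence regulator gene WRKY53 (0.50; adjusted p = 0.391) were not called either.

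**Figure D3:**
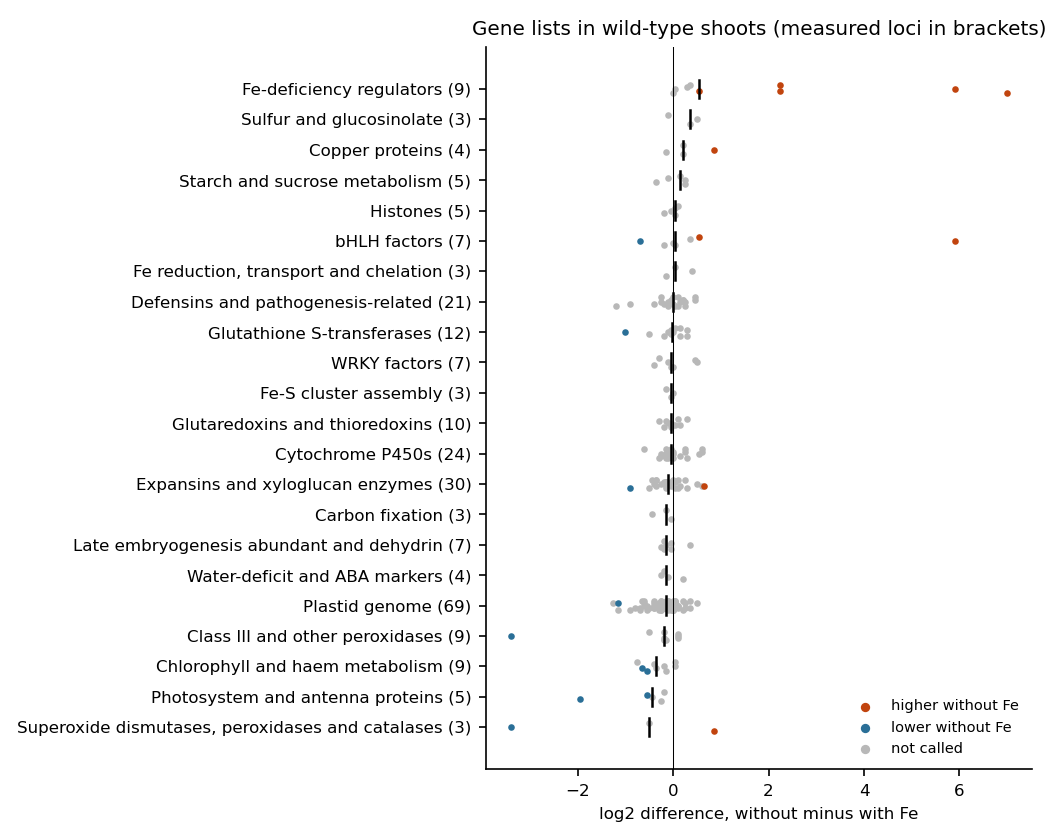
Log2 differences between wild-type shoots without and with Fe (horizontal axis) for the measured genes of each list (rows, ordered by median, number measured in brackets), with a bar at the median. Fe-deficiency regulators reach furthest right with 5 of 9 called higher, and the photosystem, chlorophyll and plastid-genome lists lie mostly left of 0.

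The response of shoots was then set against that of roots from the same media, which share no arrays with the shoots. In roots 612 probe sets rose (2.69%) and 569 fell (2.5%), or 5.19% together. Of those that rose, 76 were the same in both organs, 12.5% of the shoot list and 12.4% of the root list. Of those that fell, 106 were the same, 21.3% of the shoot list and 18.6% of the root list, while 11 that rose in shoots fell in roots and 4 that fell in shoots rose in roots. The difference between the organs' responses was itself called for 697 probe sets (3.06%), 323 with the higher value in shoots (1.42%) and 374 with the lower (1.64%).

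AT4G36700 had the largest organ difference among the named genes, with a log2 fold change of 6.35 in shoots and 0.45 in roots (difference 5.90 ± 0.20 SE; limma adjusted p = 1.09e-07). AT1G12030 had 4.70 in shoots and 1.15 in roots (difference 3.55; adjusted p = 3.48e-05), and AT3G02480 had 5.80 in shoots and 2.30 in roots (difference 3.50; adjusted p = 0.00065). The MATE gene AT2G04050 had 3.90 in shoots and 0.70 in roots (difference 3.20; adjusted p = 0.0017). These differences stayed called without any 1 of the 8 wild-type arrays. In such fits the group left with 1 array has no spread of its own. AT4G25030 had -2.35 in shoots and 0.40 in roots (difference -2.75), SAPX -3.40 in shoots and -0.75 in roots (-2.65), AT1G49010 -2.25 in shoots and 0.30 in roots (-2.55) and AT3G49160 -4.10 in shoots and -1.85 in roots (-2.25). All 4 had adjusted p-values of 0.000537 or lower and also stayed called without any 1 of the 8 arrays.

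The reverse was seen in 2 genes named above. AT3G58060 (MTP8) had a log2 fold change of 0.05 in shoots and 3.80 in roots (difference -3.75; limma adjusted p = 3e-06), and AT1G18910 (BTSL2) 0.30 in shoots and 1.80 in roots (-1.50; adjusted p = 0.00692). Its relative AT1G74770 (BTSL1) had 2.25 in shoots and 2.45 in roots (-0.20; adjusted p = 0.734) by its called probe set. By the other probe set it had 0.10 in shoots and 2.55 in roots (-2.45; adjusted p = 0.000288), so its organ difference is unsettled. AT1G47400 (IMA1) had 7.0 in shoots and 5.40 in roots (difference 1.60; adjusted p = 0.0151), and BHLH101 5.90 in shoots and 4.60 in roots (1.30; adjusted p = 0.0336). The difference was lost for IMA1 without either shoot array without Fe (adjusted p 0.0613 and 0.0652), without shoot replicate 2 with Fe (0.0564) or without root replicate 2 without Fe (0.086), and for BHLH101 whichever of the 8 arrays was left out (0.0529 to 0.155). PSAN had -1.5 in shoots and -1.9 in roots, with no called difference (adjusted p = 0.39), whereas LHCB4.3 had -1.95 in shoots and 0.00 in roots (-1.95; adjusted p = 0.00122).

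**Figure D4:**
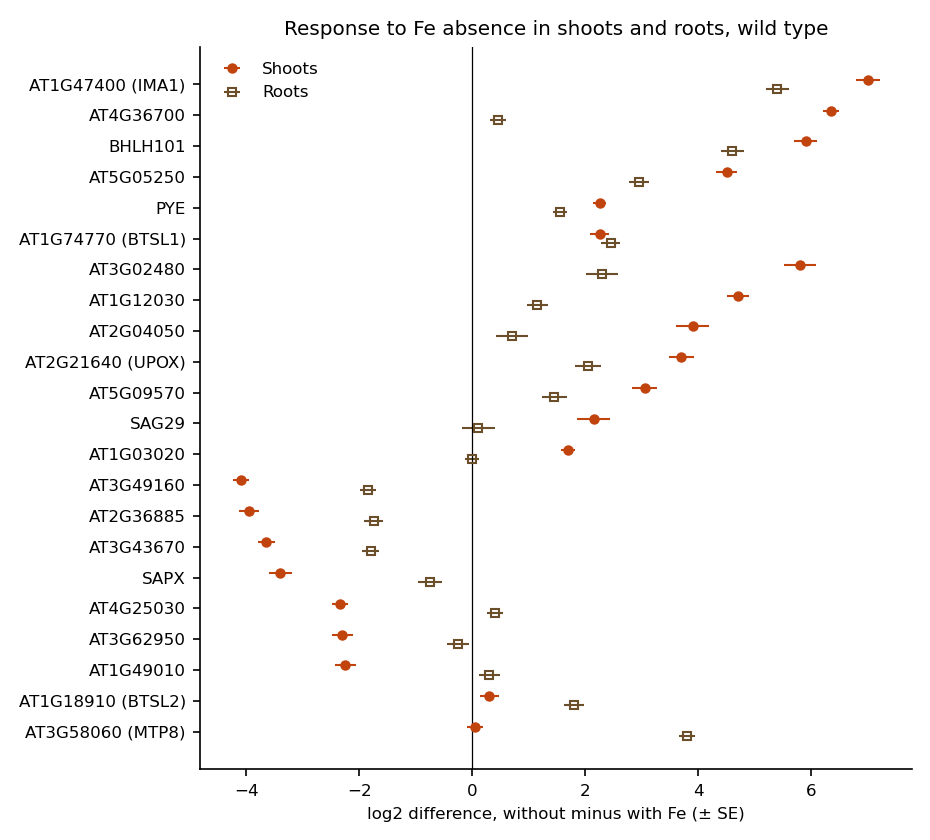
Log2 differences between plants without and with Fe in shoots (filled circles) and roots (open squares) of the wild type, with SE bars from the 12-array limma fit. AT4G36700 lies at 6.35 in shoots and 0.45 in roots and MTP8 at 0.05 in shoots and 3.80 in roots, while AT1G47400, BHLH101 and PYE lie well above 0 in both.

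Shoots without Fe were also set directly against irt1 shoots, which grew with Fe but lack the root Fe transporter. This comparison uses the same arrays without Fe as the comparison above, so the 2 are not independent. Its groups differ in both genotype and medium, and the parts of these cannot be told apart. The calls numbered 93 (0.409%): in shoots without Fe, 65 probe sets were higher (0.286%) and 28 lower (0.123%). AT1G47400 (IMA1) had 10.4 and 10.5 in shoots without Fe and 10.0 and 9.6 in irt1 shoots, and was not called (0.65; adjusted p = 0.303). BHLH101 had 8.8 and 9.2 in shoots without Fe and 9.2 and 8.8 in irt1 shoots (0.00). SAPX had 5.1 and 4.7 in shoots without Fe and 5.0 and 5.4 in irt1 shoots, and was not called (-0.30; adjusted p = 0.684). SDH2-1 and AT5G51010 had differences of 0.05 and 0.00.

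Of the 6 mitochondrial stress markers 4 were higher in shoots without Fe than in irt1 shoots, beside 0.286% of all probe sets. The group was put together after the values of the same arrays without Fe were seen, so this count is no test. NDB2 (0.30; adjusted p = 0.593) and AT5G64400 (0.10; adjusted p = 0.822) were not called. The MATE gene AT2G04050 had 8.2 and 6.9 in shoots without Fe, against 4.0 and 4.0 in irt1 shoots (3.55 ± 0.29 SE; limma adjusted p = 0.000417), close to the 3.6 and 3.7 of wild-type shoots with Fe. AT2G21640 (UPOX) had 9.2 and 8.3 in shoots without Fe, against 6.7 and 6.4 in irt1 shoots (2.20 ± 0.23 SE; limma adjusted p = 0.00221). AT5G51440 had 7.0 and 6.0 in shoots without Fe, against 4.2 and 4.0 in irt1 shoots (2.40 ± 0.32 SE; limma adjusted p = 0.0102), and AT2G41730 9.8 and 8.8 in shoots without Fe, against 7.5 and 6.9 in irt1 shoots (2.10 ± 0.29 SE; limma adjusted p = 0.0108). AT5G09570 (1.95; adjusted p = 0.00496) and NDB4 (1.5; adjusted p = 0.0114) were higher as well. For the 6 genes called here both arrays without Fe lay above both irt1 arrays. The calls of AT2G04050, AT2G21640 and AT5G09570 held without any 1 of the 4 arrays. A group left with 1 array has no spread of its own, so this does not test the replicate difference in shoots without Fe. AT5G51440 was lost without replicate 1 of the shoots without Fe (adjusted p = 0.103) or either irt1 array (0.0543 and 0.0597), AT2G41730 without replicate 1 of the shoots without Fe (0.0736) or irt1 replicate 2 (0.0662), and NDB4 without either irt1 array (0.0681 and 0.0597).

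AT4G36700 was higher in shoots without Fe by 1.00 ± 0.14 and AT3G02480 by 1.65 ± 0.28 (SE; limma adjusted p = 0.0123 and 0.0327), on top of levels in irt1 shoots of 8.5 and 8.5 for AT4G36700 and 7.9 and 7.1 for AT3G02480. Both calls were lost without replicate 2 of the shoots without Fe (adjusted p 0.0658 and 0.103) or irt1 replicate 2 (0.0597 and 0.125), AT4G36700 also without irt1 replicate 1 (0.0677) and AT3G02480 also without replicate 1 of the shoots without Fe (0.361). Among the lower genes AT1G09500, of the alcohol dehydrogenase-like reductases, had 3.4 and 3.1 in shoots without Fe, against 5.2 and 5.1 in irt1 shoots (-1.9 ± 0.12 SE; limma adjusted p = 5.29e-05), and 3.3 and 3.1 in wild-type shoots with Fe. AT2G40960 had 5.4 and 5.1 in shoots without Fe, against 6.8 and 6.6 in irt1 shoots (-1.45 ± 0.18 SE; limma adjusted p = 0.00807), and 5.8 and 5.4 in wild-type shoots with Fe. In both genes the irt1 arrays lay above all 4 wild-type arrays. AT2G40960 lost its call without replicate 2 of the shoots without Fe (adjusted p = 0.0625) or irt1 replicate 1 (0.0577). AT5G26270 (-1.15), AT3G62950 (-1.10) and AT4G25030 (-0.80) were also lower, with adjusted p-values of 0.0421, 0.0387 and 0.0442. AT5G26270 and AT4G25030 lost their calls whichever of the 4 arrays was left out (adjusted p 0.0739 to 0.409 and 0.116 to 0.205), and AT3G62950 without any but replicate 2 of the shoots without Fe (0.0824 to 0.383). In a model of the 6 shoot arrays 0 probe sets were called by limma in this comparison (1607 at an unadjusted p under 0.05). The total of 93 was 22 and 57 without replicate 1 or replicate 2 of the shoots without Fe and 48 and 51 without irt1 replicate 1, which had the high GAPDH difference of 1.6, or replicate 2.

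**Figure D5:**
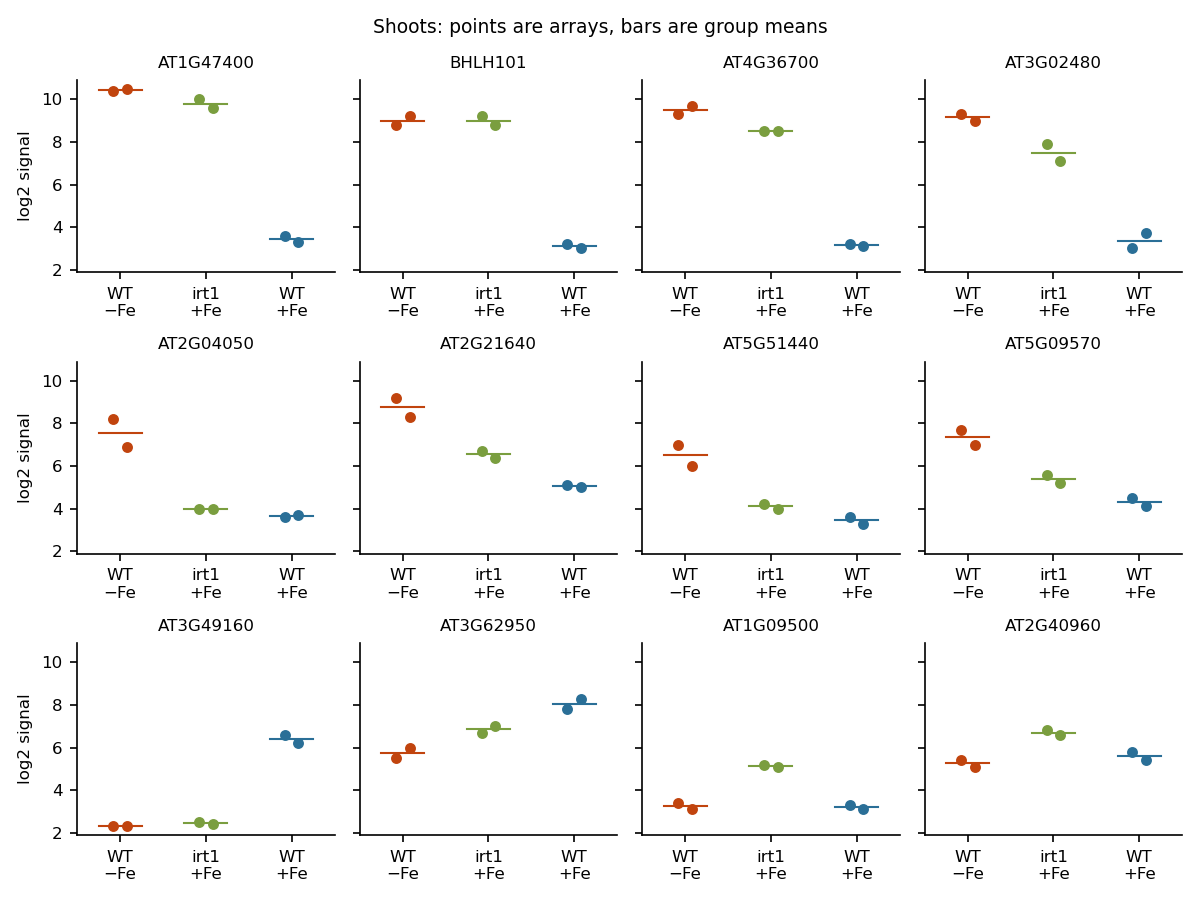
Deposited log2 signal (vertical axis) of 12 genes in wild-type shoots without Fe, irt1 shoots with Fe and wild-type shoots with Fe, with 1 point an array and a bar at each group's mean. AT1G47400 and BHLH101 lie at 8.8 or above in both the wild type without Fe and irt1, AT2G04050 at 6.9 and 8.2 in the wild type without Fe against 4.0 or below elsewhere, and AT1G09500 at 5.1 and 5.2 in irt1 against 3.4 or below elsewhere.

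Probe sets that carry no gene in the annotation reached similar sizes. Probe set 251677_at had 10.1 and 10.1 in shoots without Fe, against 3.2 and 3.3 in shoots with Fe (6.85 ± 0.19 SE; limma adjusted p = 4.07e-09), and 263231_at had 8.4 and 7.2 without Fe and 3.5 and 3.0 with Fe (4.55 ± 0.36 SE; limma adjusted p = 2.25e-05). At the other end 254098_at had 4.5 and 3.9 without Fe and 11.3 and 11.0 with Fe (-6.95 ± 0.32 SE; limma adjusted p = 1.88e-07), and 251109_at had 6.4 and 6.1 without Fe and 11.4 and 11.2 with Fe (-5.05 ± 0.14 SE; limma adjusted p = 4.07e-09). In irt1 shoots 251677_at, at 9.7 and 9.4, and 254098_at, at 4.4 and 5.3, were near the values without Fe, while 263231_at, at 5.2 and 4.3, lay between the wild-type groups.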

How the data were processed

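Total RNA of each sample was labelled and hybridised to 1 Affymetrix array. The deposited values are log2 signals per probe set, made with RMA per the submitters' processing notes. The RMA version, and whether RMA was run on all arrays jointly, is not given in the sources used here. Values run from 1.9 to 13.5 with 1 decimal, so a fold change of 2-array groups moves in steps of 0.05. Of 22810 probe sets, 64 controls were left out.

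Groups came from the sample titles. All 12 arrays entered 1 limma 3.58.1 model (R 4.3.3) with a mean per group (6 residual degrees of freedom, 5.29 prior). Contrasts were tested two-sided with eBayes and called at p under 0.05 after Benjamini-Hochberg adjustment over 22746 probe sets, with no minimum fold. The model code was also run on simulated arrays, in which each probe set had the same spread in every group. That run cannot test whether shoots and roots share a spread, and its outcome is not given here. With 2 arrays a side, exact permutation gives no p below 0.333 and was not run. The titles call replicates biological, without saying whether cultures were separate, so the spread between replicates may be technical. The p-values use 1 spread per probe set, estimated over all 12 arrays, roots included. The SD of the replicate difference was 0.19 to 0.22 in the root groups and 0.22 to 0.29 in the shoot groups. The shared spread may therefore understate that of shoots, which was not tested. The number of arrays limits the precision.

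Names came from the platform annotation through the RefSeq table of assembly TAIR10.1: 13513 probe sets had 1 gene (13436 matched), 503 several and 8730 none. Of 210 loci on 16 hand-written lists 51 were measured and 10 were dropped because the symbol differed, and a further 25 lists were searched by name. Heat shock, MYB, ribosomal, ferredoxin, oxygenase, auxin and mitochondrial-genome searches found 0. Named genes were the 12 highest and 12 lowest called genes whose groups did not overlap, up to 3 called members a list, and 4 each way in the organ and irt1 comparisons. On lists a locus with several probe sets counts by the one with the highest mean over the 12 arrays. Members and lists were chosen with earlier results of these data known. Promoter motifs were not searched, since no sequence was at hand.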

Additional observations from a re-analysis of the deposited data

Results flagged for a closer look

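The response to the medium without Fe differed between shoots and roots, by the limma test of the difference itself (adjusted p under 0.05), in 26 of the genes named by the rule. Over all probe sets the share was 3.06%. The rule names some genes for a called organ difference and others for a large shoot change, which is part of that difference. The 26 therefore cannot be read as a result about the named genes as a set. Values are the log2 fold change in shoots minus that in roots. Among genes that rose in shoots the difference was 5.90 for AT4G36700, 3.55 for AT1G12030, 3.50 for AT3G02480, 3.20 for AT2G04050 and 2.25 for AT1G33130. It was 1.65 for AT2G21640, 1.60 for AT5G09570, 1.60 for AT1G47400, 1.55 for AT5G05250, 1.30 for BHLH101 and 0.85 for XTH16. Among genes that fell in shoots it was -2.75 for AT4G25030, -2.65 for SAPX, -2.55 for AT1G49010, -2.25 for AT3G49160, -2.20 for AT2G36885, -2.10 for AT1G13650 and -2.05 for AT3G62950. It was -1.95 for LHCB4.3, -1.85 for AT3G43670, -1.65 for AT5G59400, -1.55 for AT3G20510, -1.50 for GI and -0.80 for HEMA2. In AT3G58060 (MTP8) at -3.75 and AT1G18910 (BTSL2) at -1.50, the rise was in roots and the shoot value was not called. The differences of 7 of these genes were lost without single arrays, with adjusted p-values of up to 0.155 for BHLH101, 0.139 for AT1G13650, 0.125 for XTH16, 0.112 for AT5G09570, 0.105 for HEMA2, 0.0972 for AT2G21640 and 0.086 for AT1G47400.

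The difference was also called in 21 further genes or probe sets of the text, most of them chosen after their values were seen. The unnamed probe sets among them were picked by rule, as the largest called changes each way. Among those higher in shoots it was 2.05 for SAG29, 2.0 for AT5G43450, 1.70 for AT1G03020, 1.40 for NET3A, 1.40 for APL4, 1.15 for AT5G43460 and 0.95 for IQD22. It was 1.05 for LHCB4.2 and 0.90 for RCA, leaf markers that were lower in roots without Fe and not called in shoots. Among those lower in shoots it was -2.15 for AT1G21670, -1.70 for AT1G21680, -1.40 for CHL, -1.35 for ALN, -1.1 for AT3G57280, -1.0 for AT5G51010 and -1.0 for SWEET16. The second probe set of AT1G74770 had -2.45. Of the unnamed probe sets 251677_at had 1.5, 263231_at 3.30, 254098_at -4.05 and 251109_at -1.85. Those of AT1G03020, AT1G21670, CHL, NET3A, the second probe set of AT1G74770, 251109_at, 254098_at and 263231_at held without any single wild-type array, and the others were lost without at least 1 (highest adjusted p between 0.0535 and 0.128).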

How the results depend on the processing

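None of the 44 called genes and probe sets named by the rule changed direction in shoots under the settings tried. Their groups did not overlap, so leaving out 1 array could not reverse them. Several other settings keep the difference of means as it is, so the constant direction is no test of these genes. Uncalled values near 0, such as AT3G43630 and AT3G43660, did change sign without single arrays. The 1106 calls in shoots became 350 to 1236 with 1 wild-type shoot array left out, 1262 without irt1 replicate 1 (tried after seeing the data), 121 with the 6 shoot arrays alone, 3 with the 4 compared arrays, and 330 with a minimum of 2-fold. The 697 organ differences became 256 to 686 with 1 array left out and 463 with 2-fold. The 93 differences from irt1 shoots became 22 to 57 with 1 array left out, 57 with array weights, 50 with 2-fold, and 0 in limma models of the 6 shoot or the 4 compared arrays (1607 and 1949 at an unadjusted p under 0.05). With the replicate number as a block the counts were 1453, 882 and 134, and all 44 kept their calls. Replicate differences correlated by -0.092 to 0.199 between groups (0.18 between the shoot groups compared), so the numbers are not taken to pair the samples. Of those 44, 30 kept their calls with the 6 shoot arrays, 1 with the 4 compared arrays and 34 to 41 with 1 wild-type shoot array left out. With arrays centred on their median, 32.41% of the called organ differences had the higher value in shoots, against 46.34% as deposited. Arrays whose group is left with 1 replicate are assumed to vary like the other groups. The promoter motif shares were not run. The 13 called list members were 13 with all probe sets of a locus.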

Other observations

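Called genes that lie next to each other on a chromosome were listed after the values were seen, from the gene order of the RefSeq table. Of all named probe sets 4.12% were called, and how many called neighbours that share alone would give was not tested. A run of 4 called genes surrounds AT1G74770 (BTSL1, 2.25), with AT1G74750 at 0.45, AT1G74780 at 0.65 and AT1G74790 at 0.55. The second probe set of AT1G74770 was not called (0.10). The dioxygenase-type gene AT5G43450 rose by 2.5 beside AT5G43460 at 1.05, and AT1G21670 and AT1G21680 had log2 fold changes of -1.45 and -1.25. Most of the called neighbours went the same way, and only some of those pairs are given here, while all opposite pairs are. Opposite neighbours besides the glutaredoxin pair were LHCB4.3 (AT2G40100, -1.95) and AT2G40110 (0.50), and AT3G50200 (-0.45) and AT3G50210 (0.55). So were AT4G36580 (0.95) and AT4G36590 (-0.45), and AT5G47540 (0.45) and AT5G47550 (-0.75). Transcripts that run into each other can share signal on the array, which was not tested.

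The second MATE gene AT2G04070, close to AT2G04050, had 5.8 and 4.8 in shoots without Fe, against 3.9 and 4.0 in irt1 shoots and 4.1 and 3.9 in wild-type shoots with Fe (log2 fold change against the wild type 1.30; limma adjusted p = 0.0103). AT2G03130 had 5.7 and 4.6 in shoots without Fe, against 3.6 and 3.6 in irt1 shoots and 3.5 and 3.7 in wild-type shoots with Fe (1.55; limma adjusted p = 0.00596). In both genes replicate 1 of the shoots without Fe was the higher, and both groups with Fe lay close together. CHIL, of flavonoid synthesis, had 8.3 and 7.9 in shoots without Fe, 7.9 and 7.2 in irt1 shoots and 6.7 and 6.2 in wild-type shoots with Fe (1.65; limma adjusted p = 0.0269). IQD22, IQD30 and iqd33, of a family of calmodulin-binding proteins, rose by 0.75, 0.60 and 0.60, 3 of 15 measured, and each lost its call without 1 of several arrays (adjusted p up to 0.0919, 0.179 and 0.267).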
